A study of Fukomys damarensis and Heterocephalus glaber and Mus musculus with 160 samples.

Results

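HNF6 (ONECUT1) is a transcription factor of the cut-homeodomain family that binds DNA in hepatocytes, bile duct cells and pancreas, and is known for its part in liver and pancreas development and in hepatocyte gene expression. It shares regulatory regions of the hepatocyte with other liver factors. FOXA1 is a forkhead factor that can bind closed chromatin, CEBPA is a basic leucine zipper factor of metabolic genes, HNF4A is a nuclear receptor of the mature hepatocyte, and RXRA is the nuclear receptor with which many metabolite-sensing receptors pair. Among histone modifications near such binding sites, H3K4me3 is found at promoters, H3K27ac at promoters and enhancers in use, and H3K4me1 at active as well as primed enhancers.

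The regions described here are the HNF6 peaks of Damaraland mole-rat (Fukomys damarensis) liver, taken from 1 chromatin immunoprecipitation sequencing (ChIP-seq) library of the animal DMR1. They are the peaks of the deposited list with a −log10 q of at least 4, the q-value being the peak caller's own false discovery measure: 32067 of 67398 peaks, or 47.6% of the list, on 1891 scaffolds. There is 1 HNF6 library of this species, so the peaks themselves have no replicate, and no value below says how far they would recur in another animal. Fold enrichment over background and q come from the same comparison of the HNF6 library with its input chromatin. Both are given as a description.

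All animals were wild-type adults with estimated ages. DMR1 and DMR4 were males of 48 months, DMR2 and DMR3 males of 36 months, DMR11 a male of 48 months and DMR6 a female of 48 months. The comparison lists were 7 other liver factor lists (RXRA, FOXA1 and CEBPA of DMR1 and of DMR4, and HNF4A of DMR4), 1 heart list of TBX5, a T-box factor of the heart, from DMR6, and 27 histone lists. Liver H3K27ac and H3K4me1 came from DMR1, DMR2, DMR3, DMR4 and DMR6, liver H3K4me3 from DMR1 and DMR4, and heart libraries of the 3 marks from DMR1, DMR2, DMR3, DMR4 and DMR11. Whole organs were used, so the cells behind a peak are not known. The liver lists of DMR1 were called against 1 shared input library, as were those of DMR4, per the file names. Read depth is unknown, as the lists do not state it. The numbers of peaks ranged from 78131 to 114466 in liver H3K27ac lists and from 51446 to 139112 in those of heart. For H3K4me1 they ranged from 130602 to 165394 in liver and from 32893 to 158541 in heart. Positions are on the build DMR_v1.0, counted from 1, and no gene or sequence of that build was used here.

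The HNF6 peaks had a median fold of 5.43, with a 25th percentile of 4.97 and a 75th percentile of 6.66, and the 99th percentile was 20.2. The median width was 346 bases, and 12470 peaks (38.9%) had the list's minimum width of 299 bases. The peaks lay far apart: the median distance between neighbouring summits on a scaffold was 45835 bases, and 9.23% of neighbours lay within 5000 bases. Close to the selection limit, 3 peaks just inside it (among them KN121161.1:3293786-3294240) had a fold of 3.94 at a −log10 q of 4.00. The 3 nearest peaks outside it had a fold of 4.08 at a −log10 q of 3.99.

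A group of peaks on short scaffolds stood apart and is therefore given separately. Scaffolds on which the last peak of any Damaraland mole-rat list ended before 100000 bases carried 1499 HNF6 peaks (4.67%), and all 27 peaks with a fold of 60 or more were among them. The 5 HNF6 peaks of highest fold were KN125078.1:607-1843 with a fold of 2183.4, KN122917.1:4637-5406 with 903.7, KN121944.1:1343-2648 with 794.5, KN115258.1:1-535 with 755.1 and KN121412.1:1-871 with 587.8. Each of them overlapped a peak of all 7 other liver lists and no histone consensus. At KN125078.1:607-1843 the fold was 2447.7 for RXRA, 2728.3 for FOXA1 and 2405.8 for CEBPA in DMR1. In DMR4 it was 2035.3, 4705.9 and 1773.8 for those factors and 4690.1 for HNF4A. The heart TBX5 list had no peak there. The region was thus high in each of the 7 other liver factor lists as well as in that of HNF6.

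On short scaffolds the fold of an HNF6 peak and that of an overlapping FOXA1 peak of DMR1 ran together. Over 963 such peaks Spearman's rho was 0.88, and 71.5% of pairs lay within 1.5-fold of each other. On the other scaffolds rho was 0.25 over 3032 peaks and 52.1% lay within that range. For CEBPA of DMR4 rho was 0.70 over 711 peaks on short scaffolds, of which 48.4% lay within 1.5-fold. It was 0.10 over 5681 peaks elsewhere, of which 35.2% did. The heart TBX5 list gave 0.20 over 400 peaks and 0.06 over 1210 peaks. These are correlations across regions of pairs of libraries, and regions are not independent replicates. The FOXA1 list of DMR1 shares its input library with HNF6, and the CEBPA list of DMR4 does not. These lists also differ in factor and animal, and had the highest and the lowest rho of the liver lists on short scaffolds. For the remaining liver lists rho there was 0.87 (RXRA) and 0.86 (CEBPA) in DMR1. In DMR4 it was 0.81 (FOXA1), 0.78 (HNF4A) and 0.74 (RXRA). On the other scaffolds the remaining lists gave a rho between 0.07 (RXRA of DMR4) and 0.24 (CEBPA of DMR1). The part of the shared input was not tested.

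**Figure D1:**
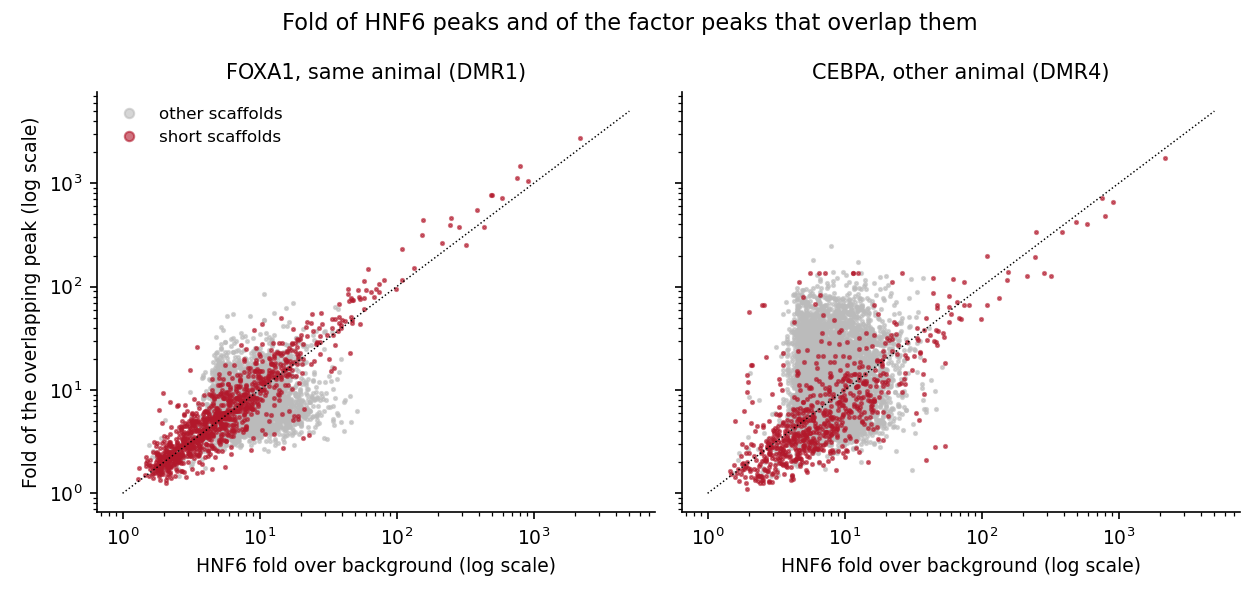
Fold over background of HNF6 peaks (x axis, log scale) against the fold of the overlapping FOXA1 peak of DMR1 (left) or CEBPA peak of DMR4 (right; y axes, log scale), 1 point per HNF6 peak; red points lie on short scaffolds and the dotted line marks equal folds. Red points reach the highest folds (HNF6 2183.4) and lie near the line for FOXA1 (71.5% within 1.5-fold) and more widely around it for CEBPA (48.4%), while grey points form a cloud with rho of 0.25 and 0.10.

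About 1 HNF6 peak in 3 lay at a place that another liver factor also occupied. A peak counted as overlapped when the shared bases reached 50% of the shorter peak. By this measure 10058 peaks (31.4%, Wilson 95% interval 30.9 to 31.9) overlapped at least 1 of the 7 other liver lists, and 22009 (68.6%) overlapped none. Intervals cover counting error only. Peaks without another factor were lower and narrower, with a median fold of 5.33 and a median width of 299 bases. Those with at least 1 had a median fold of 6.61 and a width of 466 bases. For the heart TBX5 list, which held 139418 peaks, more than any liver factor list, the overlap was 5.02% (1610 peaks).

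The largest overlaps were those with CEBPA and RXRA of DMR4. The CEBPA lists covered 13.0% of HNF6 peaks in DMR1 and 19.9% in DMR4. For RXRA the shares were 12.7% and 17.9%. FOXA1 covered 12.5% in DMR1 and 9.02% in DMR4, and HNF4A of DMR4 covered 10.8%. The lists differ in length, from 19398 peaks for FOXA1 of DMR4 to 75849 for CEBPA of DMR4. With the same number of highest-q peaks taken from each list, the share was highest for FOXA1 of DMR1 at 11.4%, with 10.7% for CEBPA of DMR1, 10.2% for RXRA of DMR1, 10.0% for RXRA of DMR4, 9.78% for CEBPA of DMR4, 9.02% for FOXA1 of DMR4 and 7.50% for HNF4A. All these shares include short scaffolds. Without them the whole lists of DMR1 and DMR4 covered 9.92% and 6.75% for FOXA1 and 10.6% and 18.6% for CEBPA. For RXRA the shares were then 10.2% and 16.5%, and for HNF4A 8.75%. Seen from the other side, FOXA1 lists gave the largest share of peaks holding an HNF6 peak, 14.4% in DMR1 and 15.0% in DMR4. The corresponding shares were 10.0% and 10.8% for RXRA, 10.1% and 8.44% for CEBPA, 5.48% for HNF4A and 1.16% for heart TBX5. These shares are of whole lists and include short scaffolds. The FOXA1 lists were the shortest, with 27773 peaks in DMR1 and 19398 in DMR4. Of the HNF6 peaks that met them, 963 of 3995 and 830 of 2892 lay on short scaffolds.

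Both animals gave the same factor at 10.6% of HNF6 peaks for CEBPA (3390 peaks), 9.89% for RXRA (3172 peaks) and 7.28% for FOXA1 (2334 peaks). The peaks shared with both animals had median folds of 7.69, 7.84 and 7.26. HNF6 peaks met by CEBPA of DMR4 alone (9.36%) had a median fold of 6.60, and those met by CEBPA of DMR1 alone (2.47%) had one of 5.43. The same order held for RXRA, with 6.66 for DMR4 alone and 5.56 for DMR1 alone. For FOXA1 the order was turned, with 6.07 for DMR4 alone and 7.23 for DMR1 alone. In each factor the higher median went with the animal of the longer list. For CEBPA and RXRA these were DMR4 lists of 75849 and 53184 peaks, against 41372 and 40759 in DMR1. For FOXA1 it was DMR1, with 27773 peaks against 19398. The part of list length was not tested, and short scaffolds are included.

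Taking each factor as present when either of its animals had a peak, CEBPA without the other factors was the most frequent combination, at 5.57% of HNF6 peaks. RXRA, FOXA1, CEBPA and HNF4A together followed at 5.51%, then RXRA with CEBPA at 3.85%, RXRA with FOXA1 and CEBPA at 3.56%, and RXRA without the others at 3.32%. HNF4A was judged from 1 library and the other factors from 2 each. Whole lists were used, from 19398 peaks for FOXA1 of DMR4 to 75849 for CEBPA of DMR4. The part of list length and number in this order was not tested. Combinations differed in their chromatin. Liver H3K27ac was present at 75.9% of the 623 HNF6 peaks with RXRA, CEBPA and HNF4A and at 70.8% of the 356 with RXRA and HNF4A. It was present at 62.8% of the 1236 peaks with RXRA and CEBPA. With all 4 factors it was present at 36.6% of 1767 peaks. With 1 factor alone it was present at 50.0% of 1065 peaks for RXRA and 28.5% of 1785 for CEBPA. The share was 27.9% of 341 peaks for HNF4A alone and 17.3% of 608 for FOXA1 alone. With none of the 4 factors it was 5.85%. These shares include short scaffolds, where 64.2% of HNF6 peaks met FOXA1 of DMR1 and 6.87% carried liver H3K27ac.

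The number of lists met was counted for every HNF6 peak. Of the 32067 peaks, 3009 met 1 list, 1913 met 2, 1528 met 3, 1151 met 4, 923 met 5, 638 met 6 and 896 met all 7. Liver H3K27ac was present at 5.85% of peaks with no list, 30.2% with 1, 47.5% with 2, 56.0% with 3, 59.9% with 4, 59.3% with 5 and 54.4% with 6, but at 20.5% of those with all 7. Of the peaks with all 7 lists, 58.0% lay on short scaffolds. The 376 such peaks on other scaffolds carried liver H3K27ac at 44.1%, and peaks with 6 lists there carried it at 64.4%. The share that met heart TBX5 was 3.60% with no list and 29.2% with all 7, or 14.9% with all 7 outside short scaffolds. A region with all 7 lists and liver enhancer marks was KN123228.1:1958675-1959462, chosen after its values were seen as the one of highest fold (33.7). There the fold was 29.9 and 59.0 for RXRA in DMR1 and DMR4, 16.8 and 7.35 for FOXA1, 5.54 and 28.8 for CEBPA, and 5.80 for HNF4A. H3K27ac was present there in 5 of 5 liver libraries and in none of heart.

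**Figure D2:**
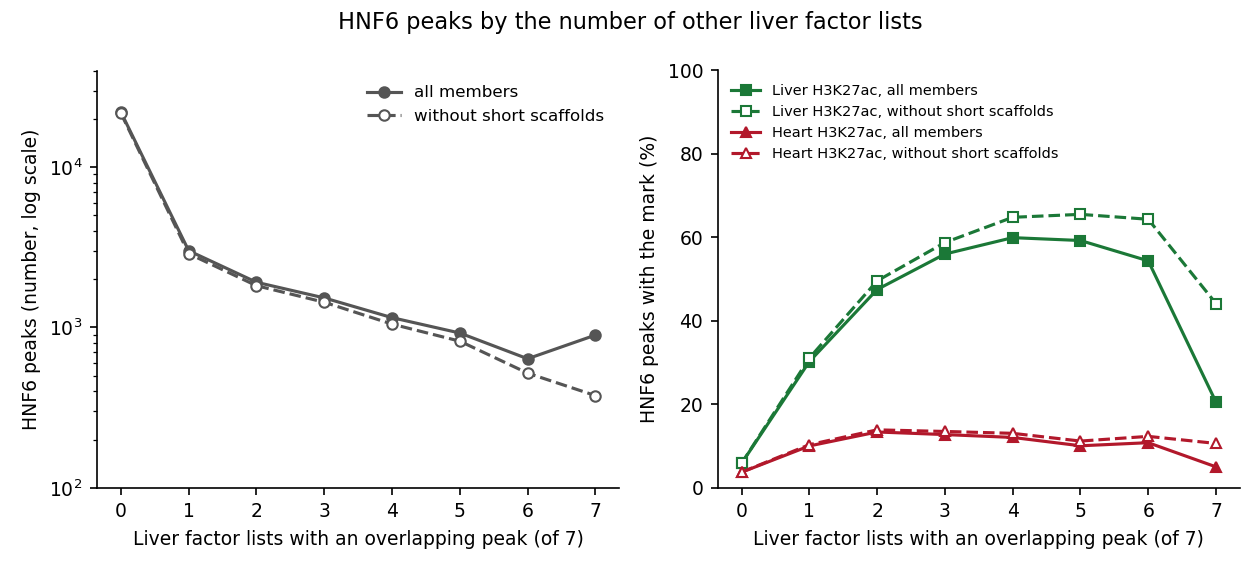
Number of HNF6 peaks (left, log scale) and percent of them with H3K27ac in at least 2 animals (right) by how many of the 7 other liver factor lists had an overlapping peak; filled symbols show all HNF6 peaks and open symbols those outside short scaffolds. Liver H3K27ac climbs from 5.85% with no list to 59.9% with 4 and is lower, 20.5%, with all 7, where 58.0% of peaks lie on short scaffolds.

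Distances between summits were measured over all HNF6 peaks and over those that were overlapped. Among overlapped peaks, whose distances the overlap rule itself limits, the median was 57 bases for FOXA1 of DMR4, 63 for FOXA1 of DMR1, 70 for RXRA of DMR1, 73.5 for CEBPA of DMR1, 76 for HNF4A, 80 for RXRA of DMR4 and 80 for CEBPA of DMR4. It was 117 bases for heart TBX5. The nearest CEBPA summit of DMR4 lay within 100 bases of 11.8% of HNF6 summits, an RXRA summit of DMR4 within 100 bases of 10.5% and an HNF4A summit within 100 bases of 6.39%. For TBX5 this share was 2.41%. Without short scaffolds the medians for the liver lists lay between 71.5 bases (FOXA1 of DMR4) and 92 bases (HNF4A), and that for TBX5 was 135 bases.

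**Figure D3:**
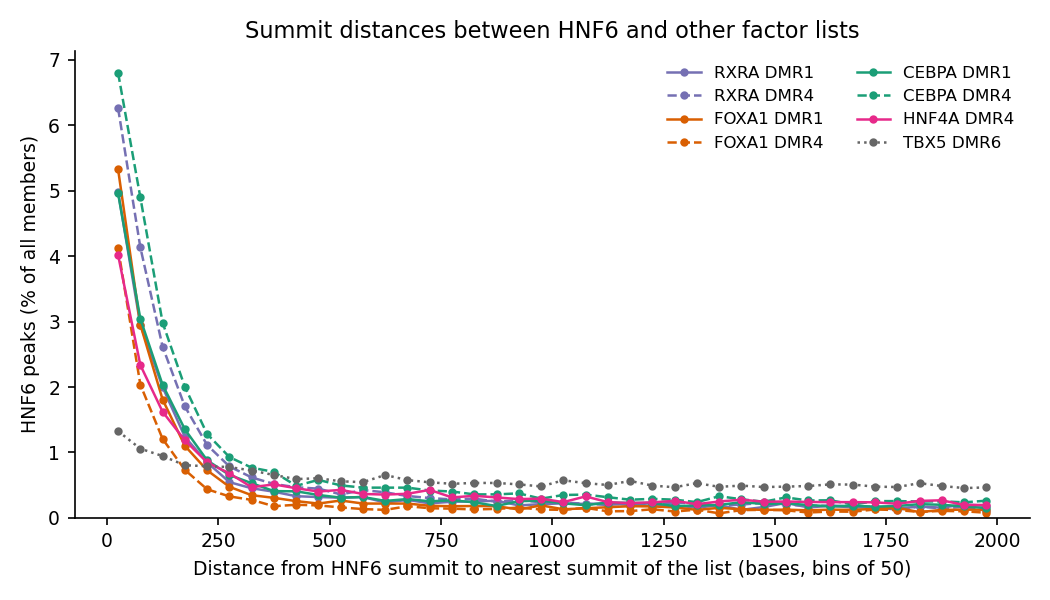
Distance from each HNF6 summit to the nearest summit of each other factor list (x axis, bases, bins of 50) against the percent of all HNF6 peaks (y axis); solid lines are DMR1 or the single HNF4A list, dashed lines DMR4 and the dotted line heart TBX5. Each liver list is highest in the first bin and falls steeply in the bins that follow. The TBX5 curve is also highest in the first bin, at 1.33%, but is lower there than every liver list. It falls more slowly and lies above the liver lists beyond 500 bases.

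The HNF6 peaks carried H3K27ac and H3K4me1 more often in liver than in heart. A mark was called present in a tissue when peaks of at least 2 animals each overlapped the HNF6 peak. H3K27ac was present in liver at 17.9% of peaks (5730) and in heart at 5.99% (1920). H3K4me1 was present at 21.6% (6941) in liver and 4.06% (1302) in heart, and H3K4me3 at 2.74% (879) and 2.64% (846). Liver H3K4me3 needed both of 2 libraries, while the other calls needed any 2 of 5. With DMR1 and DMR4 alone in both tissues, the liver and heart shares were 12.5% and 2.34% for H3K27ac, 10.4% and 1.35% for H3K4me1, and 2.74% and 1.955% for H3K4me3. In liver, 2.61% of the peaks (838) lay at promoters, defined by H3K27ac and H3K4me3 together. Active enhancers, with H3K27ac and H3K4me1 but no H3K4me3, held 10.2% (3265), and primed enhancers, with H3K4me1 alone, 10.7% (3437). H3K27ac alone marked 5.07% (1627), H3K4me3 without H3K27ac 0.128% (41), and 71.3% (22859) had no mark. With marks in either tissue counted, 22.5% were marked in liver only, 6.22% in both, 1.97% in heart only and 69.3% in neither. Of all HNF6 peaks, 58.9% had neither a liver mark nor another liver factor.

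The share was then measured for each histone library, which the selection of HNF6 peaks had not used. For H3K27ac the 5 liver libraries overlapped 17.1% of HNF6 peaks in DMR1, 17.6% in DMR2, 12.5% in DMR3, 15.0% in DMR4 and 13.2% in DMR6. The 5 heart libraries overlapped 2.53% in DMR1, 6.04% in DMR2, 5.08% in DMR3, 6.24% in DMR4 and 4.53% in DMR11. Every liver library lay above every heart library, and the liver library of DMR1, the animal that gave the HNF6 list, lay below that of DMR2. The mean was 15.1% ± 2.29 (SD, n = 5) in liver and 4.88% ± 1.49 (SD, n = 5) in heart. The difference of 10.2 percentage points had p = 0.00794 in a two-sided exact permutation test, the smallest p that 5 libraries against 5 can give, and p = 0.0119 after Benjamini-Hochberg adjustment over the 3 marks.

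For H3K4me1 the liver libraries overlapped 16.2%, 20.4%, 11.3%, 16.0% and 16.0% of HNF6 peaks in DMR1, DMR2, DMR3, DMR4 and DMR6. In heart the shares were 2.86%, 5.32%, 2.98%, 4.10% and 1.00% in DMR1, DMR2, DMR3, DMR4 and DMR11. The groups did not overlap. Means were 16.0% ± 3.25 (SD, n = 5) and 3.25% ± 1.60 (SD, n = 5), a difference of 12.7 points (two-sided exact permutation p = 0.00794, adjusted p = 0.0119). The heart library of DMR11 also had the fewest peaks, 32893. The DMR1 heart list has an extra tag in its name, which the labels leave unexplained and which may mean that its reads were reduced to a fixed number. With an equal number of peaks from every H3K4me1 library the difference was 5.05 points with the same adjusted permutation p of 0.0119. For H3K4me3 the 2 liver libraries overlapped 3.20% (DMR1) and 4.17% (DMR4), and the heart libraries between 1.503% and 2.74%. Here 2 libraries against 5 cannot give an exact permutation p below 0.0952, which was the value obtained for a difference of 1.29 points.

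Liver and heart libraries of DMR1, DMR2, DMR3 and DMR4 came from the same animals. With a paired comparison of these 4 animals the difference was 10.6 points for H3K27ac and 12.2 points for H3K4me1, and the liver share was higher in 4 of 4 animals for each mark. The exact sign-flip test over 4 pairs cannot go below p = 0.125, and gave an adjusted p of 0.188 for both marks. Library names began with 2 prefixes, which the labels do not explain, and liver and heart libraries occurred under both for H3K27ac and H3K4me1. When libraries were exchanged only within a prefix, the differences were 9.62 and 12.1 points with an exact permutation adjusted p of 0.03. With the stricter limit of a −log10 q of at least 10 for HNF6 peaks the H3K27ac difference was 26.0 points and the H3K4me1 difference 25.7 points. With the whole HNF6 list they were 5.48 and 8.04 points, and with an overlap of 1 base the H3K4me1 difference was 20.98 points.

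The heart TBX5 list, selected with the same q limit (62813 peaks), was used as the contrast from the other tissue. TBX5 peaks were overlapped by H3K27ac at a mean of 4.99% ± 0.623 (SD, n = 5) in liver libraries and 7.85% ± 1.76 (SD, n = 5) in heart libraries. For H3K4me1 the order was the other way, with 5.79% ± 1.15 (SD, n = 5) in liver and 4.25% ± 1.97 (SD, n = 5) in heart. For each library the TBX5 share was subtracted from the HNF6 share. This gave a mean of 10.1 points in liver and −2.97 points in heart for H3K27ac, a difference of 13.1 points (two-sided exact permutation p = 0.00794, adjusted p = 0.0119). For H3K4me1 the means were 10.2 and −0.996 points, a difference of 11.2 points with the same exact permutation p and adjusted p. With an equal number of peaks from every H3K4me1 library it was 4.61 points, with the same adjusted permutation p of 0.0119, and with an overlap of 1 base 19.6 points. With a −log10 q of at least 10 the H3K27ac and H3K4me1 differences were 38.8 and 26.1 points, and with the whole lists 6.97 and 6.30 points. For H3K4me3 the difference was 1.68 points with an exact permutation p of 0.0952, the lowest that 2 libraries against 5 can give. With the 4 paired animals the values were 13.4 and 11.3 points for H3K27ac and H3K4me1, with an exact sign-flip adjusted p of 0.188. HNF6 and TBX5 were each 1 library, from a male and a female animal, so factor, animal and sex cannot be told apart in this contrast.

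**Figure D4:**
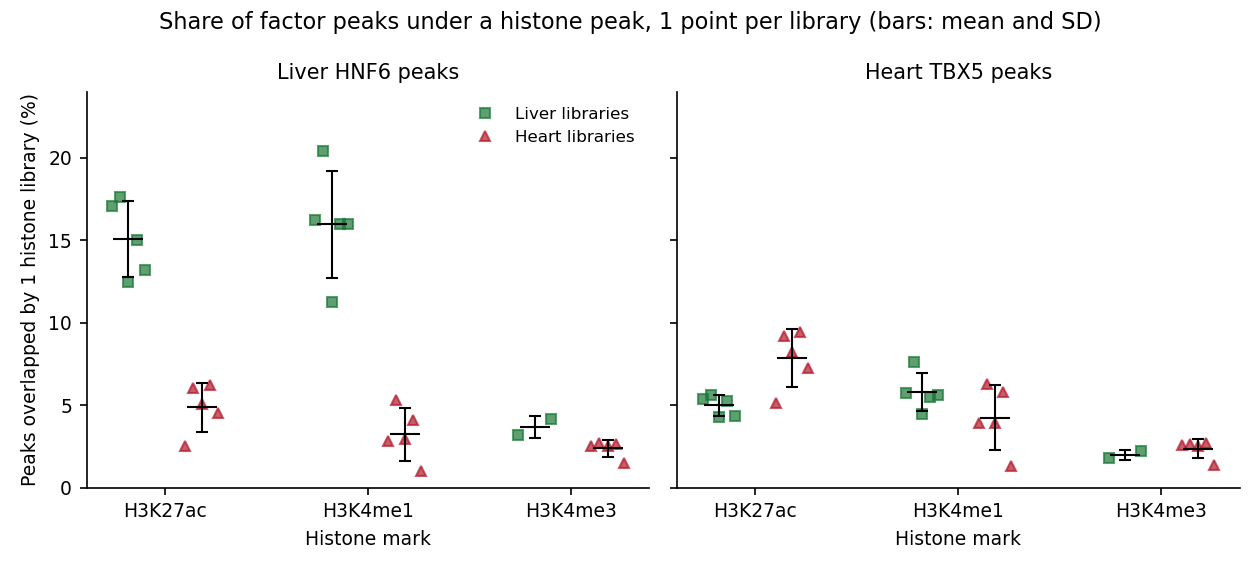
Percent of liver HNF6 peaks (left) and heart TBX5 peaks (right) overlapped by the peaks of 1 histone library (y axis) for 3 marks (x axis); squares are liver libraries, triangles heart libraries, and black lines the mean and SD. For HNF6 all H3K27ac and H3K4me1 liver libraries (11.3% to 20.4%) lie above the heart libraries (1.00% to 6.24%), while TBX5 peaks have means of 4.99% in liver and 7.85% in heart for H3K27ac, and of 5.79% and 4.25% for H3K4me1.

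The share under liver H3K27ac was also computed for the other factors at the same q limit. The consensus held 17.9% of HNF6 peaks, 40.7% and 61.9% of RXRA peaks in DMR1 and DMR4, 31.8% and 37.2% of FOXA1 peaks, 35.2% and 41.6% of CEBPA peaks, 37.2% of HNF4A peaks and 5.77% of heart TBX5 peaks. Among the 10000 peaks of highest q in each list the share was 34.8% for HNF6, 40.3% for FOXA1 of DMR1, 49.8% for CEBPA of DMR1 and 58.6% for RXRA of DMR1. In DMR4 it was 41.65% for FOXA1, 69.1% for HNF4A, 71.4% for CEBPA and 79.5% for RXRA. For heart TBX5 it was 9.7%. With 1 HNF6 library this order was not tested. H3K27ac peaks that held an HNF6 peak were higher than the rest of their own library: the ratio of median folds lay between 1.76 and 2.38 in the 5 liver libraries and between 1.11 and 1.58 in the 5 heart libraries. They were also wider, with medians of 1025 against 381 bases in liver of DMR1 and 1093 against 456 in heart of DMR4. The ratio of folds for H3K4me3 lay between 1.82 and 2.57 in liver and between 1.24 and 3.88 in heart. For H3K4me1 it lay between 1.10 and 1.39 in liver and between 1 and 1.08 in heart. The part of peak width in these ratios was not tested.

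Heart marks at HNF6 peaks of each liver class were set beside those at all liver consensus regions of the class. Of the 838 HNF6 peaks at liver promoters, 72.6% (Wilson 95% interval 69.4 to 75.5) had a mark in heart. The share was 21.8% (20.4 to 23.3) at active enhancers, 11.6% at primed enhancers and 14.8% with H3K27ac alone. Over all liver consensus regions classed by the same rule, a heart mark was present at 91.7% of 20090 promoters, 36.4% of 67262 active enhancers, 28.0% of 97490 primed enhancers and 46.8% of 19878 regions with H3K27ac alone. The HNF6 peaks thus had a lower share than all regions in each class. The first shares count HNF6 peaks and the second count histone regions, which have other widths, and the difference was not tested. RXRA of DMR4 met 53.1% of the promoter peaks, 53.1% of the active enhancer peaks and 20.7% of the primed enhancer peaks. FOXA1 of DMR1 met 12.8%, 22.0% and 13.3% of these classes. Where H3K27ac stood alone, 88.3% of HNF6 peaks met at least 1 liver list, and where no mark was present 17.3% did.

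Single regions illustrate the classes, each being the HNF6 peak of highest fold in its class. At the liver promoter KN123737.1:86817-88153 HNF6 had a fold of 42.4, H3K27ac was present in 5 of 5 liver libraries with folds between 9.78 and 27.1, and H3K4me3 had folds of 12.6 in DMR1 and 89.2 in DMR4. The peak met 6 of the 7 lists, HNF4A being the exception, and no heart mark was present. At the active enhancer KN124092.1:2079485-2080658 HNF6 had a fold of 39.6 and H3K27ac folds ranged from 26.6 to 52.9 in the 5 liver libraries, with CEBPA of DMR4 (6.48) as the only other liver factor and a TBX5 peak of fold 4.13. The primed enhancer KN121080.1:3465218-3466077 had an HNF6 fold of 46.3 and H3K4me1 in DMR2 (3.31) and DMR6 (4.38). With H3K27ac alone, KN122570.1:2102924-2104007 had an HNF6 fold of 51.1, met 5 lists, and had H3K27ac in every liver library (3.49 to 15.4) and in no heart library. It also had an H3K4me1 peak in liver of DMR4 (6.62), which as 1 animal did not reach the 2 that a call needed. The region KN124472.1:6381193-6381878, with an HNF6 fold of 18.9 and no other liver factor, had H3K4me3 in both liver libraries (5.36 and 69.4). It also had H3K4me1 in liver of DMR2 (4.48) and DMR4 (3.59), and H3K27ac in no liver library. In heart the region had H3K4me3 in 5 of 5 libraries and H3K27ac in 3. Without any other liver factor, the HNF6 peak of highest fold was KN124216.1:1536427-1537390 (42.1), with H3K27ac in DMR1 (4.55) and DMR2 (5.10).

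Among the 8153 HNF6 peaks with an H3K27ac peak in any library, 1709 (21.0%) had one in every liver library and in no heart library. Over all 213688 merged H3K27ac regions of the 2 tissues this share was 6.2%. The reverse, every heart library and no liver library, was found for 109 HNF6 peaks (1.34%), with 3.57% over all regions. The shares count HNF6 peaks in the first case and merged regions in the second. For H3K4me1, 853 of 10461 peaks (8.15%) had it in every liver and no heart library, close to the 6.8% over all regions, and 10 (0.0956%) the reverse, with 0.557% over all regions. Of the 1709 peaks, 82.9% met at least 1 other liver factor list and 3.74% met TBX5. Of the 109 peaks with the reverse pattern, 22.0% met a liver list and 12.8% met TBX5. Over all HNF6 peaks, 5.02% met TBX5. A liver list was met by 69.2% of all HNF6 peaks at liver promoters, 74.3% at active enhancers and 88.3% with H3K27ac alone. Where no liver mark was present, 17.3% met one. The sets of 1709 and 109 peaks differ by definition in liver H3K27ac, so their contrast is not separate from that mark. The highest of these 109 was KN123813.1:1616760-1617311, with an HNF6 fold of 18.9 and H3K27ac folds in heart of 5.16 (DMR1), 4.93 (DMR2), 17.6 (DMR3), 3.43 (DMR4) and 14.9 (DMR11). That peak had H3K4me1 in all 5 liver libraries, with folds between 8.10 and 15.9, and met RXRA in both animals and CEBPA of DMR4.

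Overlap with liver factors and liver marks was highest in the top group when the peaks were divided by fold into equal groups, but the 27 peaks of highest fold carried no mark in 2 or more animals. The peaks were ranked by fold and split into 4 equal groups. The cuts at folds of 4.97 and 5.43 fell within ties of 2867 and 2083 peaks. Ties were ordered by scaffold and position, so membership of the lower groups depends in part on that order. From the lowest to the highest group, the share that met at least 1 liver list was 23.8%, 14.9%, 24.6% and 62.2%. For CEBPA of DMR4 it was 13.4%, 7.80%, 14.5% and 44.1%, and for FOXA1 of DMR1 10.3%, 4.14%, 7.42% and 28.0%. Liver H3K27ac was present at 12.2%, 8.06%, 14.7% and 36.5%, and liver H3K4me1 at 16.4%, 11.1%, 19.4% and 39.6%. Heart H3K27ac was present at 5.81%, 4.22%, 5.75% and 8.17%. The share without a liver mark was 79.2% in the lowest group and 45.0% in the highest. Between the lowest and the highest group, the overlap with at least 1 list differed by 38.4 points, liver H3K27ac by 24.3 points and heart H3K27ac by 2.36 points. For heart TBX5 the difference was −1.06 points, which turned to 4.68 with peaks ranked by −log10 q and to 0.47 without short scaffolds.

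The lowest folds did not have the least overlap. With 10 equal groups by fold, at least 1 liver list was met by 37.5% of the lowest group, 16.0% of the next and 10.6% of the one after, and by 57.5% of group 9 and 78.4% of group 10. Of the lowest group, 11.4% met TBX5. Without short scaffolds the lowest group had 24.5%, group 3 had 10.2% and the highest 76.7%. Many peaks of the lower groups shared a fold exactly: 2867 peaks had a fold of 4.97, of which 77.4% were at the minimum width, and 8.89% of them met a liver list and 2.23% carried liver H3K27ac. Of the 733 peaks with a fold under 4, 63.8% lay on short scaffolds and 80.1% met a liver list. They met CEBPA at 57.2% in DMR1 and 38.1% in DMR4, while over all HNF6 peaks the DMR4 list was met more often (13.0% and 19.9%). Outside short scaffolds the shares for these low peaks were 30.6% and 32.1%. At folds from 16 to 30 (587 peaks), 84.8% met a liver list and 50.1% carried liver H3K27ac. At folds from 30 to 60 (78 peaks) the shares were 89.7% and 33.3%, or 81.4% and 60.5% for the 43 of them outside short scaffolds. At folds of 60 or more all 27 peaks met a liver list, none had a histone mark in at least 2 animals of either tissue, and all lay on short scaffolds.

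**Figure D5:**
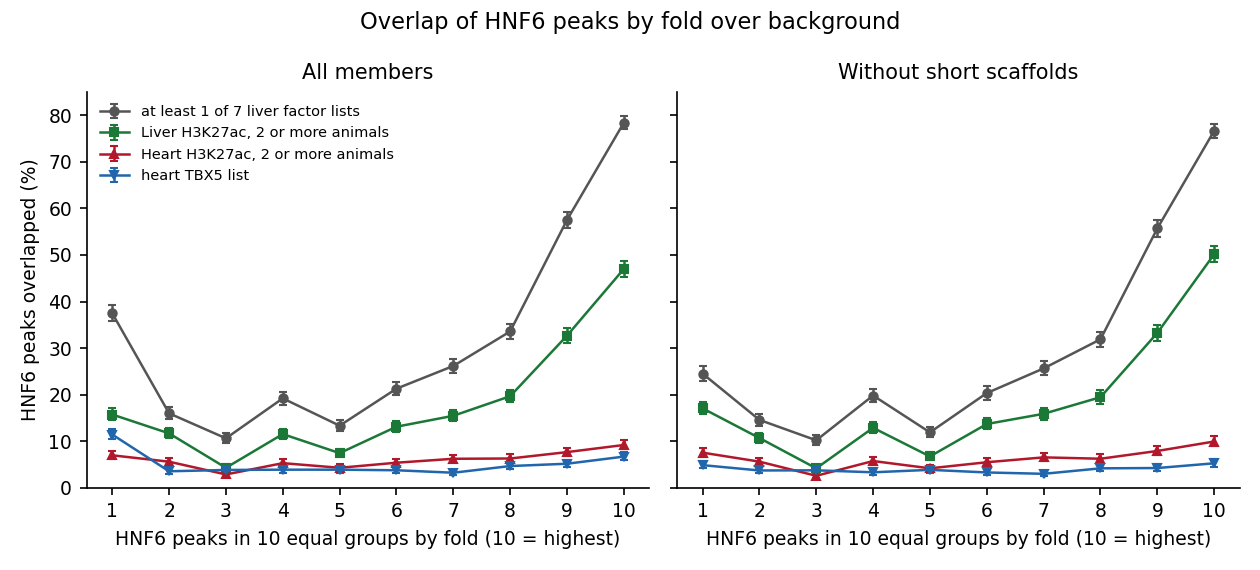
Percent of HNF6 peaks overlapped (y axis; error bars are Wilson 95% intervals) in 10 equal groups by fold (x axis, 10 highest) for at least 1 of 7 liver factor lists, liver H3K27ac, heart H3K27ac and the heart TBX5 list; left all HNF6 peaks, right those outside short scaffolds. The liver factor share reaches 78.4% in the highest group and is 37.5% in the lowest, or 24.5% there without short scaffolds, while heart H3K27ac stays between 2.87% and 9.20% in all 10 groups of the left panel.

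Few places held many HNF6 peaks. Counted in windows of 20000 bases starting at each peak, 23636 windows held that peak alone, and the fullest held 11 peaks, at KN121628.1:11269-31472. Their HNF6 folds lay between 1.83 and 3.82. All 11 met at least 1 other liver list, 9 had a liver mark and 2 met TBX5. The last peak of any list on that scaffold ended at 43790 bases, so it belongs to the short scaffolds described above.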

How the data were processed

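ChIP-seq peak lists of Damaraland mole-rat liver and heart were used as deposited, 1 list per library. Peaks were called with MACS2 against a named input library, per the submitters' processing notes and the file names. Neither its version nor an aligner is given in the sources used here. The deposited fold is a linear ratio over background. The caller's −log10 q-value was used as deposited, and its deposited −log10 p-value was not needed. The deposited score follows 10 times the −log10 q, and the deposited summit is an offset in bases from the peak's start. The lowest −log10 q of the HNF6 list was 1.31. Read depth is not known. Peak numbers rise with depth, so libraries were also compared with equal numbers of peaks.

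Overlap required 50% of the shorter peak. A mark was present with peaks of at least 2 animals. Per-library shares were compared with two-sided exact permutation tests, adjusted by the Benjamini-Hochberg method over 3 marks at 0.05. The replicate is the animal. Liver and heart libraries of the same animal pair by label; in H3K27ac 1 of 4 animals and in H3K4me1 3 of 4 deviated the same way from both tissue means. Shares carry Wilson 95% intervals. The overlap and test code was checked on simulated data. Alternatives covered the overlap rule, q limits, list lengths, consensus rules, left-out libraries, pairing and short scaffolds, the last chosen after seeing the data. Named regions are the 5 of highest fold, the highest of each liver class, of those in all or none of the 7 lists and of each H3K27ac tissue pattern, those at the q limit and the fullest window. Members and rules were chosen with earlier results of these data known. The reference annotation is of another build, so no gene was assigned. The work used Python 3.11.15, NumPy 2.4.6, pandas 2.3.3 and Matplotlib 3.10.9.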

Additional observations from a re-analysis of the deposited data

Results flagged for a closer look

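The heart H3K4me3 library of DMR11 overlapped 1.503% of HNF6 peaks, far below the other 4 heart libraries of that mark, which lay between 2.54% and 2.74%. It also had the fewest peaks of them, 20803, and the part of that number in the result was not tested. Of 5 groups of 5 libraries, each examined on 2 related measures (10 comparisons in all), this was the 1 with such a gap. On the HNF6 share minus the TBX5 share the same library, at 0.136 points, did not stand apart. Chance alone flags about 1 group in 20.

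The liver minus heart difference of the share under H3K27ac was 13.1 percentage points larger for HNF6 than for heart TBX5 peaks, and that under H3K4me1 was 11.2 points larger, each with an exact permutation adjusted p of 0.0119 (5 libraries against 5). With equal peak numbers per library the values were 11.04 and 4.61 points at the same adjusted p, and with the 4 paired animals the exact sign-flip adjusted p was 0.188, a test that cannot go below p = 0.125. HNF6 and TBX5 are 1 library each, from different animals and tissues.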

How the results depend on the processing

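The share of HNF6 peaks in at least 1 of 7 liver lists, 31.4%, was 34.5% with an overlap of 1 base, 30.02% with the summit inside the other peak, 19.1% for the whole list, 72.1% with a limit of 10 in place of 4 on the −log10 q, 28.8% with the limit of 4 set for the other lists too, 23.6% with equal list lengths and 29.1% without short scaffolds. The share under liver H3K27ac, 17.9%, was 22.5%, 15.4%, 11.4%, 39.4% and 16.9% under the first 5 of these settings and 18.4% without short scaffolds. It was 14.6% with 3 animals required, 12.5% with DMR1 and DMR4 alone, 22.2% with consensus regions built first, and between 15.8% and 17.3% without any 1 liver library. With 3 animals required, H3K4me1 was 15.1% in liver and 2.06% in heart. The share under liver H3K4me1, 21.6%, was 31.3% with an overlap of 1 base and 30.8% with consensus regions built first. The difference between the highest and the lowest of 4 equal groups by fold was 36.6 points for at least 1 list and 17.9 points for liver H3K27ac with the summit inside the other peak, and the same to 3 digits with windows of 200 bases. Ranked by −log10 q the differences were 57.4 and 30.5 points, and the former was 42.1 points without short scaffolds. For TBX5 the sign turned, to 4.68 ranked by −log10 q and to 0.47 without short scaffolds. Leaving out the peaks with a fold of 60 or more left these shares within their intervals. The causes of these shifts were not tested.

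Of the tested tissue differences, all for H3K27ac and H3K4me1 kept their direction in each of 20 settings, and they missed the threshold only with the replicate block, where 4 paired animals cannot reach it: 10.6 and 12.2 points for HNF6, and 13.4 and 11.3 points for HNF6 minus TBX5. Leaving out 1 library gave 9.57 to 10.9 and 11.6 to 13.9 points for HNF6, with an exact permutation adjusted p of 0.0238. The H3K4me3 difference for HNF6 lay between 0.70 and 2.97 points in 17 settings. With at most 2 liver libraries, the exact permutation p could not go below 0.0952 nor the sign-flip p below 0.5. No setting could therefore pass, and these tests decide nothing for this mark.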
